A study of Homo sapiens with 12 samples.

Results

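Tamoxifen was set against fulvestrant at the same dose and time in T47D cells, a human breast cancer line that expresses estrogen receptor alpha. The members are 4 of the 12 libraries of the series, those whose labels give complete medium with 100 nM tamoxifen (libraries 3 and 4) or 100 nM fulvestrant (libraries 3 and 4) for 1 h, and 23375 of 59410 genes passed the filter on low counts and were tested. Nascent RNA was measured by PRO-seq, a nuclear run-on assay that counts the transcripts engaged RNA polymerases are extending, so the values read transcription rather than stored RNA. The other 8 libraries, also in pairs numbered 3 and 4, were complete medium with vehicle (0.1% DMSO by volume), complete medium with 100 nM raloxifene, hormone-starved cells with vehicle, and hormone-starved cells with 1 nM estradiol. Every group has a recorded 3 days in medium before its treatment. No label says whether a pair of libraries came from 2 cultures or 1, so each p-value reflects the library-to-library spread alone, which may be technical.

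Estrogen receptor alpha is a nuclear receptor that binds DNA when it holds estradiol and recruits coactivators to nearby genes. Tamoxifen and raloxifene are non-steroidal selective receptor modulators, the first a triphenylethylene and the second a benzothiophene, which occupy the ligand pocket and act as antagonists in breast cells and as partial agonists in some other tissues. Fulvestrant is a steroid built on estradiol with a long side chain, acts as a full antagonist and leads to loss of the receptor protein. Tamoxifen is converted in the liver to hydroxylated metabolites that bind the receptor more tightly, and the labels name tamoxifen itself.

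The 4 libraries held between 5583088 and 7393181 counts, within the range of 3682311 to 7856803 over all 12. Levels below are in CPM (a count divided by its library's total and put on a common scale) scaled by TMM, a correction for library composition, and compare a gene only with itself. Marker values in this paragraph use the total over all genes and later levels the total over tested genes, so the scales differ slightly. The summed CPM of the 8 luminal epithelial markers, among them KRT8, CDH1 and GATA3, was 3940 and 4090 with tamoxifen and 3860 and 3920 with fulvestrant. The basal keratins KRT5 and KRT14 had at most 1 count in a library and HBB, a red blood cell gene, had 0. TP63, a basal factor, had 33 to 59 counts, with 7.95 and 7.34 CPM with tamoxifen and 6.42 and 5.9 CPM with fulvestrant, and the collagen gene COL1A1 had 106 to 126 counts. The part of other cell types in the results was not tested. In bulk libraries fewer cells of a type and less RNA per cell cannot be told apart.

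At equal dose, the genes that passed the test were nearly all transcribed more with tamoxifen than with fulvestrant, among them GREB1, PGR, MYC, CXCL12 and IGFBP4. By edgeR's quasi-likelihood test with Benjamini-Hochberg adjustment at 0.05, 106 genes were higher with tamoxifen, 0.453% of the genes tested, and 2 were lower, 0.00856%. At an unadjusted p under 0.05, 724 were higher (3.1%) and 463 lower (1.98%), and 49.8% of all tested genes had a positive difference. The fold of tamoxifen over fulvestrant in the 106 ran from 1.14 to 5.23 with a median of 1.48, and 49 of them differed at least 1.5-fold and 14 at least 2-fold. In these 106 genes the tamoxifen level was 65.7% to 156% of the vehicle level with a median of 88.8%, and the fulvestrant level was 25.5% to 87.0% with a median of 60.0%. These percentages use the same drug libraries as the test and are a description. The count fell to 47 without fulvestrant library 3 and to 70 without tamoxifen library 4, and was 76 and 88 without the other tamoxifen and fulvestrant library. DESeq2 called 82 genes higher, all of them among the 106.

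**Figure D1:**
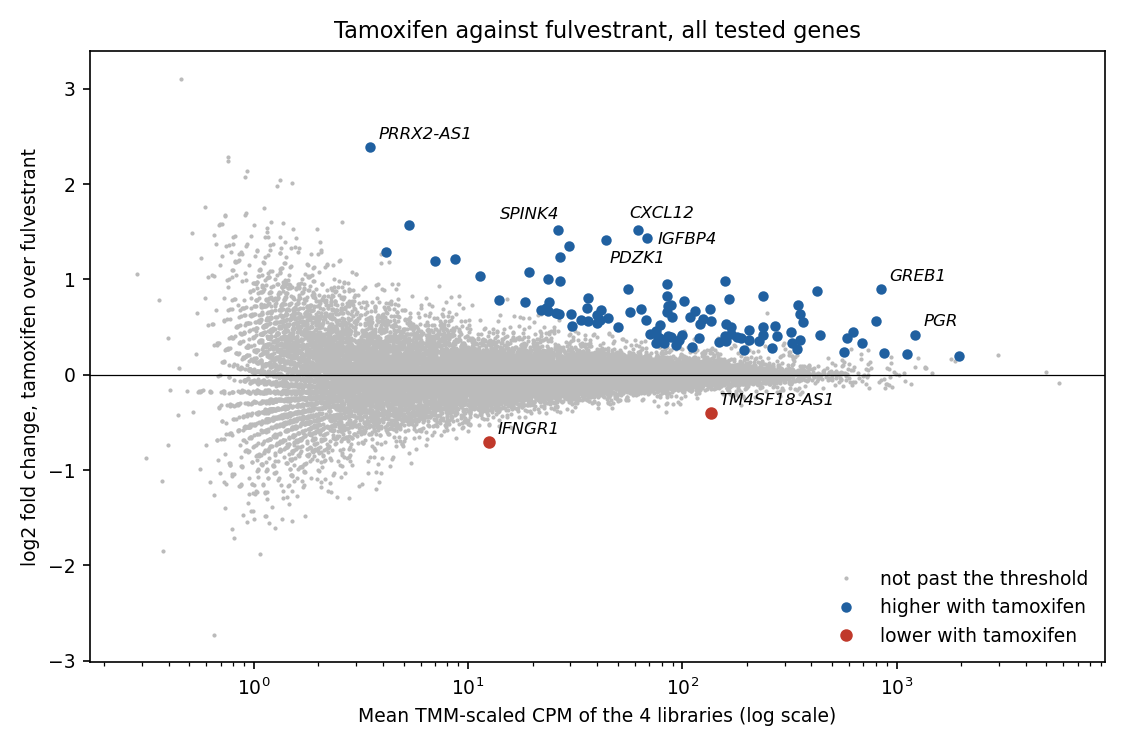
Each point is 1 of 23375 tested genes, with the mean TMM-scaled CPM of the 4 libraries on a log x axis and the log2 fold change of tamoxifen over fulvestrant on the y axis. The 106 genes called higher with tamoxifen are blue and the 2 called lower are red.

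The widest differences among well-counted genes were at SPINK4, CXCL12, IGFBP4, PDZK1 and PTGES, each transcribed at least 2.54-fold higher with tamoxifen. CXCL12 encodes a chemokine that draws cells carrying CXCR4, and its level was 30.0 and 34.3 CPM with fulvestrant, 86.3 and 97.7 CPM with tamoxifen and 115 and 119 CPM with vehicle. Both tamoxifen libraries lay between the other groups without overlap, and the log2 fold change over fulvestrant was 1.51 ± 0.11 (SE, edgeR adjusted p = 5.1e-08). IGFBP4, which encodes a secreted protein that binds insulin-like growth factors, had 37.8 and 35.8 CPM with fulvestrant, 98.9 and 100 CPM with tamoxifen and 146 and 124 CPM with vehicle. Its difference was 1.43 ± 0.10 on the log2 scale (edgeR adjusted p = 5.1e-08), and the 3 groups did not overlap.

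SPINK4, a secreted protease inhibitor of the Kazal type, gave 13.9 and 13.3 CPM with fulvestrant, 39.0 and 39.3 CPM with tamoxifen and 50.3 and 56.4 CPM with vehicle. This was the largest fold among genes with a mean of at least 50 counts, 2.87, with a log2 value of 1.52 ± 0.14 (edgeR adjusted p = 1.5e-06). PDZK1, a scaffold protein that holds membrane transporters, had 20.4 and 27.7 CPM with fulvestrant and 57.2 and 70.5 CPM with tamoxifen, against 75.9 and 78.4 CPM with vehicle (log2 1.41 ± 0.12, edgeR adjusted p = 1.1e-06). In both genes the tamoxifen libraries stood apart from fulvestrant and below vehicle. PTGES, an enzyme that makes prostaglandin E, had 14.5 and 18.9 CPM with fulvestrant, 41.9 and 42.8 CPM with tamoxifen and 52.3 and 52.1 CPM with vehicle (log2 1.35 ± 0.13, edgeR adjusted p = 4.6e-06).

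**Figure D2:**
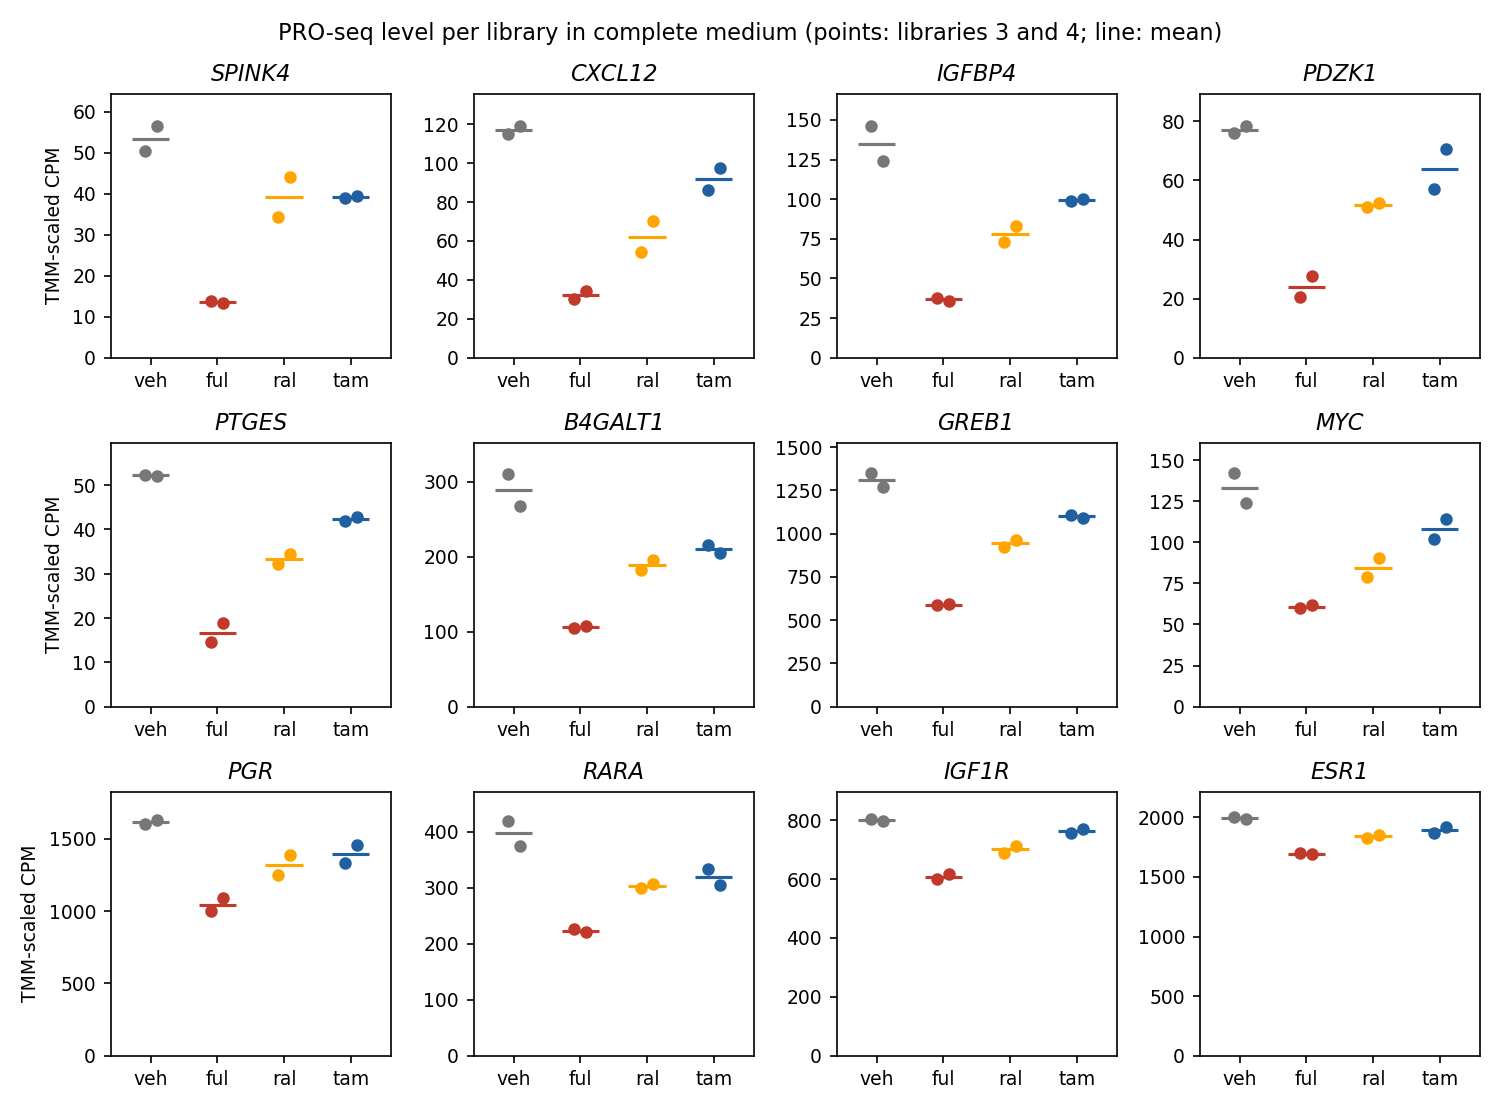
The TMM-scaled CPM of 12 genes is plotted on a linear axis from 0, 1 point for each of the 2 libraries of complete medium with vehicle (veh), fulvestrant (ful), raloxifene (ral) and tamoxifen (tam), with a line at the mean. For CXCL12 the fulvestrant points are at 30.0 and 34.3 and the tamoxifen points at 86.3 and 97.7, and for ESR1 all 8 points lie between 1690 and 2000.

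The upstream sequences of the 4 genes with the largest folds are shown because these genes had the widest differences among well-counted genes. Each is the 250 bases before the gene's start, written 5′ to 3′ on the gene's strand, from RefSeq on GRCh38.p14, with capitals at the estrogen response element half-site GGTCA on either strand. The CXCL12 window is chr10:44385098-44385347 on the minus strand and holds 1 half-site, the PDZK1 window is chr1:145707401-145707650 on the minus strand and holds 1, and the windows of SPINK4 (chr9:33239917-33240166, plus strand) and IGFBP4 (chr17:40443200-40443449, plus strand) hold 0.
CXCL12: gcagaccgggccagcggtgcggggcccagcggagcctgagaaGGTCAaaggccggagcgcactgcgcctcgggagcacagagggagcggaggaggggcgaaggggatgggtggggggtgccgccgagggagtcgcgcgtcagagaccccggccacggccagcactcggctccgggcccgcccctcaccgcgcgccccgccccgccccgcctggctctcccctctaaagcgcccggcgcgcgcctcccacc
PDZK1: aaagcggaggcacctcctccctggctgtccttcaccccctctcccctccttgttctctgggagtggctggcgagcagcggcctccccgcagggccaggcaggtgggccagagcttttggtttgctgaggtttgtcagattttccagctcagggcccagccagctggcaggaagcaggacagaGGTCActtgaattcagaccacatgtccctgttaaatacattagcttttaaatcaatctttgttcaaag
SPINK4: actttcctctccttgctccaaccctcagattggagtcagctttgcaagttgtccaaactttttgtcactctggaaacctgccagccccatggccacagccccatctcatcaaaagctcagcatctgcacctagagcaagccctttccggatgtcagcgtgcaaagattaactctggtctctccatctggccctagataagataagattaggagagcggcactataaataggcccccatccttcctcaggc
IGFBP4: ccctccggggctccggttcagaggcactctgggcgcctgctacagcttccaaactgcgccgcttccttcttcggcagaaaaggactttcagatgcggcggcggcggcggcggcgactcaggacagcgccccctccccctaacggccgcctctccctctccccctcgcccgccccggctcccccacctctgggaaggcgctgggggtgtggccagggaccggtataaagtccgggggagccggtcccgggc
In the CXCL12 window the half-site begins 208 bases before the start, and in the PDZK1 window 68 bases before it. Of the 106 genes, 73 had a promoter in the table, and 27 of these (37.0%) held a half-site, against 30.4% of 13723 promoters of tested genes and 33.1% of all 27305. The full palindrome GGTCANNNTGACC was in 0 of the 73 and in 6 of the 13723 (0.0437%). A match is a description of letters in this window and not a binding site.

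Other genes with large folds were of several kinds, and 3 of them lost their calls in some or all fits that left out 1 library. B4GALT1, a Golgi galactosyltransferase, had 105 and 108 CPM with fulvestrant and 216 and 205 CPM with tamoxifen (log2 0.98 ± 0.07, edgeR adjusted p = 6.4e-08). SERPINA10, an inhibitor of clotting factors, had 17.3 and 14.9 CPM with fulvestrant and 43.4 and 31.9 CPM with tamoxifen, where vehicle had 38.5 and 28.1 CPM (log2 1.23 ± 0.16, edgeR adjusted p = 0.00027). Its tamoxifen and vehicle libraries overlapped, and fulvestrant lay below both. CALCR, the calcitonin receptor, differed by 1.08 ± 0.15 and GATA4, a zinc finger transcription factor, by 0.99 ± 0.14 on the log2 scale (edgeR adjusted p = 0.00044 and 0.00045). LINC00160, a long non-coding RNA, the pseudogene CYP2T1P and NECAB2, a calcium-binding protein, differed by 1.21 ± 0.21, 1.04 ± 0.20 and 1.01 ± 0.21. CYP2T1P (chr19:40808443-40811100) lies directly beside EGLN2 (chr19:40799191-40808434), and NECAB2 overlaps OSGIN1. EGLN2 and OSGIN1 were also called higher, and whether reads are shared with them was not tested. The adjusted p of LINC00160 (edgeR 0.0055) became 0.089 without tamoxifen library 4, 0.13 without fulvestrant library 3 and 0.057 without fulvestrant library 4. For CYP2T1P (edgeR 0.014) the 4 fits that each left out 1 library gave an adjusted p of 0.058, 0.11, 0.20 and 0.12, and for NECAB2 (edgeR 0.024) the adjusted p was 0.55 without tamoxifen library 3 and 0.40 without fulvestrant library 4.

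Among the classical targets of the receptor, GREB1, MYC and PGR were higher with tamoxifen. GREB1, a receptor cofactor whose gene is itself strongly estrogen-induced, had 586 and 591 CPM with fulvestrant, 1110 and 1090 CPM with tamoxifen and 1350 and 1270 CPM with vehicle. The groups were cleanly apart, at 44.9% and 83.9% of vehicle, and the log2 difference between the drugs was 0.90 ± 0.05 (edgeR adjusted p = 3.2e-09). MYC, a transcription factor that drives growth, had 59.9 and 61.8 CPM with fulvestrant and 102 and 114 CPM with tamoxifen, against 142 and 124 CPM with vehicle (log2 0.83 ± 0.10, edgeR adjusted p = 8.1e-05). PGR, the progesterone receptor, had 998 and 1090 CPM with fulvestrant and 1330 and 1460 CPM with tamoxifen, against 1600 and 1630 CPM with vehicle (log2 0.42 ± 0.06, edgeR adjusted p = 0.00045).

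RUNX1, RARA, NRIP1, MYB, CTSD and FKBP4 were also higher with tamoxifen. RUNX1, a factor of luminal and blood cells, had 296 and 300 CPM with fulvestrant, 548 and 548 CPM with tamoxifen and 761 and 735 CPM with vehicle (log2 0.88 ± 0.05, edgeR adjusted p = 3.2e-09). RARA, the retinoic acid receptor alpha, had 226 and 221 CPM with fulvestrant and 334 and 304 CPM with tamoxifen (log2 0.51 ± 0.06, edgeR adjusted p = 0.00013). NRIP1, a corepressor of nuclear receptors, had 170 and 174 CPM with fulvestrant and 219 and 257 CPM with tamoxifen (log2 0.46 ± 0.07, edgeR adjusted p = 0.0005). In each of these genes both tamoxifen libraries were above both fulvestrant libraries and below both vehicle libraries. MYB, a factor of proliferating cells, differed by 0.90 ± 0.11, the lysosomal protease gene CTSD by 0.77 ± 0.11, and FKBP4, a chaperone of steroid receptors, by 0.67 ± 0.07 on the log2 scale (edgeR adjusted p = 7e-05, 0.00064 and 1.8e-05).

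The receptor's own gene, CCND1 and XBP1 did not pass the threshold. ESR1, which encodes the receptor, had 1700 and 1690 CPM with fulvestrant, 1870 and 1920 CPM with tamoxifen and 2000 and 1990 CPM with vehicle. The groups did not overlap, yet the log2 difference of 0.16 ± 0.04 (95% interval 0.08 to 0.24) missed the threshold (edgeR adjusted p = 0.10, and 0.044 with no filter on low counts). CCND1, the cyclin of early G1, had 96.4 and 75.7 CPM with fulvestrant and 125 and 111 CPM with tamoxifen (log2 0.46 ± 0.11, edgeR adjusted p = 0.088). Its groups did not overlap, and the edgeR adjusted p was 3.3e-06 with no filter on low counts. The log2 difference at CCND1 was 0.64 without fulvestrant library 3 and 0.30 without fulvestrant library 4. XBP1, a regulator of the secretory pathway, had 181 and 202 CPM with fulvestrant and 193 and 215 CPM with tamoxifen, which overlap (log2 0.09 ± 0.09, 95% interval -0.10 to 0.28, edgeR adjusted p = 1.0). TFF1, a secreted trefoil peptide often used as an estrogen target, had too few counts to be tested.

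Only IFNGR1 and TM4SF18-AS1 were lower with tamoxifen by edgeR at 0.05. IFNGR1, a chain of the interferon gamma receptor, had 14.7 and 16.4 CPM with fulvestrant, 8.95 and 10.1 CPM with tamoxifen and 13.2 and 13.6 CPM with vehicle, a log2 difference of -0.71 ± 0.16 (edgeR adjusted p = 0.047). It lost the call in each of the 4 fits that left out 1 library (edgeR adjusted p = 0.52 and 0.12 without tamoxifen libraries 3 and 4, and 0.19 and 0.48 without fulvestrant libraries 3 and 4) and by DESeq2 (adjusted p = 0.51). The antisense RNA TM4SF18-AS1 had 160 and 151 CPM with fulvestrant, 116 and 120 CPM with tamoxifen and 130 and 123 CPM with vehicle (log2 -0.40 ± 0.06, edgeR adjusted p = 0.0012, and 0.053 without fulvestrant library 3). Fulvestrant was the highest of these groups in both genes. The strand setting of the counting is not given, so reads of an antisense RNA and its partner cannot be told apart.

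Estradiol given to starved cells shares no library with the drug comparison and was used to look up the called genes. Estradiol raised 1177 genes, 5.04% of those tested, and 104 of the 106 genes higher with tamoxifen were among them (98.1% of the 106 and 8.84% of the 1177). The 2 others, chosen here after their values were seen, were GASK1A and ENSG00000230490, which has no symbol. Their log2 differences of 0.34 ± 0.07 and 0.33 ± 0.07 between the drugs (edgeR adjusted p = 0.034 and 0.032) were lost in each fit that left out 1 library and by DESeq2 (adjusted p = 0.36 and 0.16). Estradiol lowered 874 genes, 3.74% of those tested, and 0 of these were higher with tamoxifen by edgeR or DESeq2, while 5 were higher and 92 lower at an unadjusted p under 0.05. TM4SF18-AS1 was the 1 estradiol-lowered gene called lower with tamoxifen, and both tamoxifen libraries were below both fulvestrant libraries in 288 of the 874 (33.0%), against 15.4% of all tested genes.

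**Figure D3:**
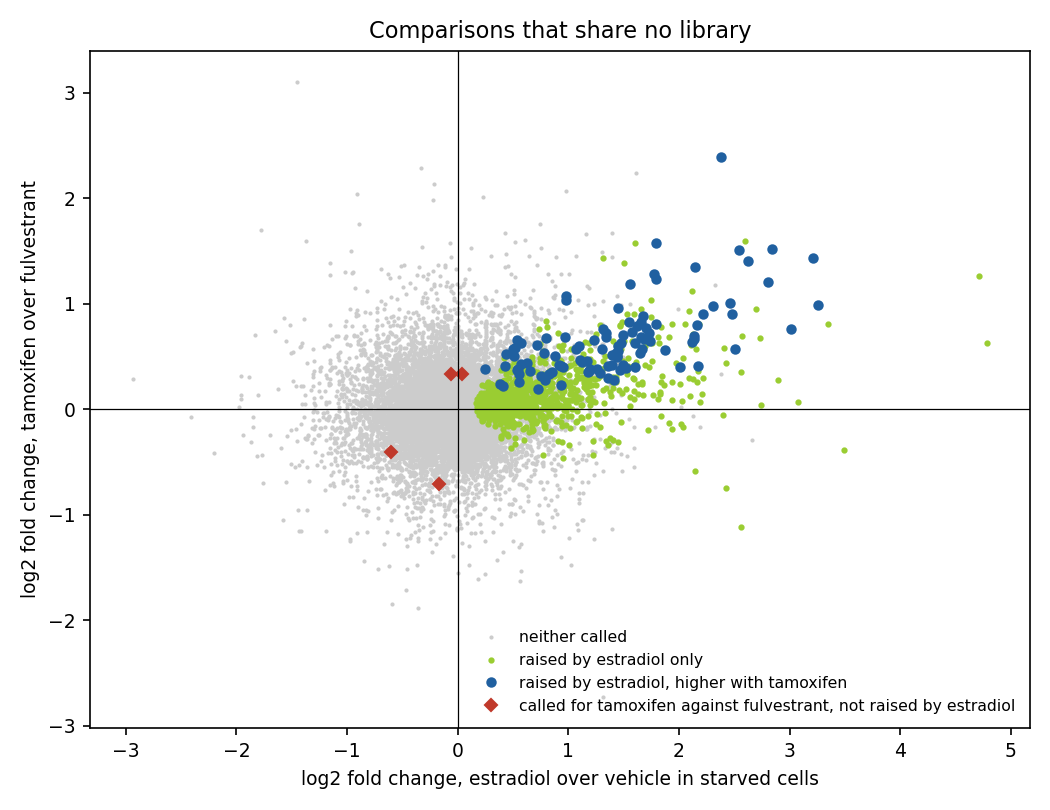
The log2 fold change of estradiol over vehicle in starved cells (x axis) is plotted against that of tamoxifen over fulvestrant in complete medium (y axis) for 23375 genes, and the 2 comparisons share no library. Of the 106 genes higher with tamoxifen, 104 are blue, on the right, and red diamonds mark the 4 called genes that estradiol did not raise.

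The gap between the drugs was in general wider in genes with a larger rise with estradiol, though not at each step. Across 289 genes raised at least 2-fold by estradiol (1.24% of those tested), 71 were higher with tamoxifen (24.6%) and the median log2 difference was 0.38, against -0.001 over all tested genes. In 255 of the 289 (88.2%) the difference was positive, against 49.8% of all tested genes. The median difference was 0.53 in 75 genes that rose by 1.5 to 2 on the log2 scale. It was 0.48 in 37 that rose by 2 to 2.5 and 0.76 in 21 that rose by 2.5 or more. Among genes that rose by less than 0.5 on the log2 scale, the median fulvestrant level was 95.6% of vehicle and the median tamoxifen level 99.5%. In the 21 genes that rose by 2.5 or more, the medians were 43.3% with fulvestrant, 58.0% with raloxifene and 78.7% with tamoxifen. These 3 percentages share the vehicle libraries. Over the 1177 raised genes, the log2 values of the 2 comparisons had a Pearson r of 0.546, against 0.141 over all tested genes, as a description across genes, which share libraries and are not independent replicates.

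**Figure D4:**
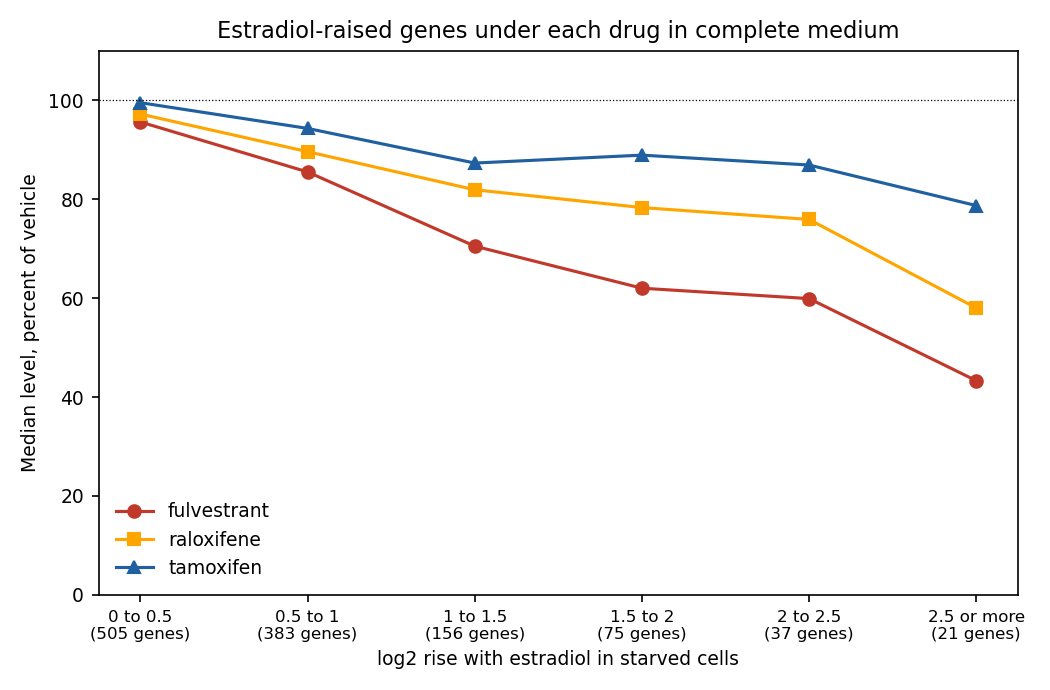
Median level as a percent of vehicle (y axis, linear from 0) for 1177 estradiol-raised genes in 6 classes of their log2 rise with estradiol in starved cells (x axis), for fulvestrant, raloxifene and tamoxifen in complete medium. In the class with the largest rise the medians are 43.3%, 58.0% and 78.7%.

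Starvation and raloxifene, whose comparisons with vehicle also share no library with tamoxifen against fulvestrant, picked out many of the 106 genes. Transcription was lower in starved than in complete medium for 2260 genes, 9.67% of those tested, and for 95 of the 106 (89.6%). Raloxifene lowered 112 genes against vehicle, 0.479% of those tested, and 52 of the 106 (49.1%, and 46.4% of the 112). In the 106 genes the raloxifene level ran from 48.4% to 144% of vehicle with a median of 78.0%.

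At some estradiol-raised genes the difference between the drugs was small. Of 218 genes raised at least 2-fold and not called, 71 had a 95% interval of the drug difference inside 1.5-fold in either direction. This is a smaller share than the 58.9% of all tested genes. Of these 71, 67 had a mean of at least 50 counts, and fulvestrant lowered 30 of the 67 against vehicle. In the 30 the log2 difference was always positive, from 0.07 to 0.36. At most of them the 95% interval lay above 0, as at BAG1 (0.17 to 0.53). At others, among them TIPARP, it held 0. The 30 were picked partly for low fulvestrant levels, and the difference uses the same fulvestrant libraries. Its sign and intervals are therefore a description. TIPARP, an ADP-ribosyltransferase, had 53.6 and 63.5 CPM with fulvestrant, 57.2 and 66.6 CPM with tamoxifen and 87.6 and 93.7 CPM with vehicle. Both drugs were below vehicle and overlapped each other, with a log2 difference of 0.08 ± 0.12 (95% interval -0.18 to 0.33, edgeR adjusted p = 1.0) that was -0.03 without tamoxifen library 4 and -0.05 without fulvestrant library 3. MYBL1, a relative of MYB, had 77.4 and 91.9 CPM with fulvestrant and 90.8 and 120 CPM with tamoxifen, which overlap. Its vehicle levels were 171 and 162 CPM. The log2 difference at MYBL1 was 0.31 ± 0.10, and its 95% interval of 0.10 to 0.52 lay above 0. The edgeR adjusted p was 0.51, and 0.024 with no filter on low counts. That difference was 0.50 without tamoxifen library 3 and 0.11 without tamoxifen library 4. Over all tested genes, 58.9% had an interval inside 1.5-fold and 77.9% inside 2-fold.

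Against vehicle, few genes passed the threshold with tamoxifen alone. By edgeR at 0.05, 12 genes (0.0513% of those tested) differed, of which 11 were lower with tamoxifen: B4GALT1, RUNX1, CA12, IL6ST, MYBL1, OLFM1, PRAG1, FMN1, PTP4A2, RMDN2-AS1 and ENSG00000254024. ABCC5, a transporter gene, was the 1 higher gene. Without adjustment, 731 genes were higher with tamoxifen (3.13% of those tested) and 799 lower (3.42%) at an edgeR p under 0.05. With no filter on low counts, 93 genes passed the adjusted threshold. The log2 values of the 11 ran from -0.67 at MYBL1 to -0.27 at FMN1, and the count was 2 without tamoxifen library 3. Fulvestrant lowered 245 genes and raised 25 against the same vehicle libraries, 1.16% of those tested, and the total was 140 without fulvestrant library 3. At CA12, a carbonic anhydrase, the levels were 236 and 241 CPM with fulvestrant, 316 and 315 CPM with tamoxifen and 417 and 391 CPM with vehicle, so both drugs were below vehicle and apart from each other.

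With raloxifene as the third compound at the same dose and time, 3 drug pairs could be compared. Raloxifene was above fulvestrant at 24 genes (0.103% of those tested), among them CXCL12 (log2 0.91 ± 0.12, edgeR adjusted p = 0.00048), IGFBP4 (1.06 ± 0.11, 2e-05) and GREB1 (0.68 ± 0.05, 1.1e-06). The number was 14 without fulvestrant library 3 and 14 without fulvestrant library 4. No gene was below fulvestrant with raloxifene by edgeR (0) or DESeq2 (0). At an unadjusted edgeR p under 0.05, 402 were below (1.72% of those tested) and 744 above (3.18%). Between tamoxifen and raloxifene, 1 gene (0.00428%) passed: RUNX1, with 410 and 451 CPM with raloxifene and 548 and 548 CPM with tamoxifen (log2 0.35 ± 0.05, edgeR adjusted p = 0.024), a call lost without tamoxifen library 4, where 0 genes passed. In that pair edgeR and DESeq2 called 0 genes lower with tamoxifen. At an unadjusted edgeR p under 0.05, 505 were lower (2.16% of those tested) and 556 higher (2.38%). The log2 difference between tamoxifen and raloxifene at CXCL12 was 0.61 ± 0.10 (95% interval 0.40 to 0.81, edgeR adjusted p = 0.063) and at SPINK4 0.05 (95% interval -0.19 to 0.29). With p-values adjusted over the 3 pairs together, 86 genes were higher and 1 lower for tamoxifen over fulvestrant, and 5 passed for tamoxifen and raloxifene.

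Gene lists were then read by counts of members called and by their medians, beside 0.453% called higher and a median log2 difference of -0.001 over all tested genes. Of 48 tested estrogen-induced genes, 25 were higher with tamoxifen and the median was 0.48, while 0 were lower by edgeR, by DESeq2 or at an unadjusted p under 0.05. This list was partly drawn from genes known to move in these data, so its count is not independent evidence. Beside the genes above, it includes the sodium-proton exchange regulator NHERF1, with 129 and 134 CPM with fulvestrant and 197 and 181 CPM with tamoxifen (log2 0.53 ± 0.07, edgeR adjusted p = 0.00034). The corticosteroid-binding globulin SERPINA6 is also on it, with 52.2 and 63.1 CPM with fulvestrant and 110 and 113 CPM with tamoxifen (log2 0.96 ± 0.10, edgeR adjusted p = 2e-05). Of 23 estrogen-repressed genes, 0 passed by edgeR or DESeq2, the median was -0.16, and in 13 both tamoxifen libraries were below both fulvestrant libraries, against 15.4% of all tested genes. At an unadjusted p under 0.05, 7 of the 23 were lower and 0 higher, where 1.98% of all tested genes were lower. LRIG3, a member of that list, had 193 and 224 CPM with fulvestrant and 159 and 177 CPM with tamoxifen. Its log2 difference was -0.32 ± 0.07 (edgeR adjusted p = 0.075, and 0.00078 with no filter on low counts). That difference was -0.42 without fulvestrant library 3 and -0.21 without fulvestrant library 4.

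Growth factor, luminal and chaperone lists each held calls, where 0.453% of all tested genes were called higher. In lists this short a single call already exceeds that share, so the shares are not read as a result. All the calls were of estradiol-raised genes. Of 38 growth factors, receptors and chemokines, 4 were higher with tamoxifen: CXCL12, IGFBP4, IGF1R and IL6ST. IGF1R, the insulin-like growth factor receptor, had 600 and 616 CPM with fulvestrant and 758 and 771 CPM with tamoxifen (log2 0.33 ± 0.04, edgeR adjusted p = 0.00028). IL6ST, the signalling chain shared by interleukin 6 family receptors, had 134 and 145 CPM with fulvestrant and 168 and 190 CPM with tamoxifen (log2 0.35 ± 0.07, edgeR adjusted p = 0.014). Its adjusted p was 0.27 without tamoxifen library 4 and 0.46 without fulvestrant library 3. Of 24 luminal markers, PGR and AGR3 were higher. AGR3, an endoplasmic reticulum protein, had 63.8 and 67.8 CPM with fulvestrant and 95.3 and 113 CPM with tamoxifen (log2 0.66 ± 0.11, edgeR adjusted p = 0.0052), and its adjusted p was 0.098 without tamoxifen library 4 and 0.16 without fulvestrant library 3. FOXA1 and GATA3, factors that open chromatin for the receptor, had log2 differences of -0.14 ± 0.07 and -0.14 ± 0.08 (edgeR adjusted p = 0.98 and 1.0). Of 18 steroid receptor chaperones, FKBP4 was the 1 called, and of 24 progestin, androgen and glucocorticoid targets PGR was the 1 called. Of those 24 targets, 4 were lower and 2 higher at an unadjusted p under 0.05, against 1.98% and 3.1% of all tested genes. Both tamoxifen libraries were below both fulvestrant libraries in 9 of the 24, against 15.4% of all tested genes, and above in 4.

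The remaining lists had 0 members called in either direction by edgeR and by DESeq2. The list of nuclear receptors and cofactors does not hold PGR, RARA, NRIP1 or GREB1, which are on the estrogen-induced list and were called. Its 32 tested members had a 95% interval inside 1.5-fold each, with a median of -0.004, and 1 was higher and 0 lower at an unadjusted p under 0.05. The 42 immediate-early genes had a median of -0.10, with 2 higher and 3 lower at an unadjusted p under 0.05. Of these 42, 11 had a positive difference, against 49.8% of all tested genes. Both tamoxifen libraries were below both fulvestrant libraries in 15 of the 42, against 15.4% of all tested genes, and above in 3. In that list FOSL2, an AP-1 subunit, had 33.8 and 31.8 CPM with fulvestrant and 43.1 and 44.8 CPM with tamoxifen, without overlap. Its log2 difference was 0.42 ± 0.11 (edgeR adjusted p = 0.17, and 0.037 with no filter on low counts). Of 40 ribosome biogenesis genes, 37 had a positive difference, against 49.8% of all tested genes, and the median was 0.11. In 17 of the 40 both tamoxifen libraries were above both fulvestrant libraries, against 15.5% of all tested genes, and in 3 they were below. At an unadjusted p under 0.05, 5 were higher and 1 lower, against 3.1% and 1.98% of all tested genes. MYBBP1A, a nucleolar protein of that list, had 29.9 and 30.4 CPM with fulvestrant and 41.9 and 33.7 CPM with tamoxifen (log2 0.34 ± 0.11, edgeR adjusted p = 0.49). The cholesterol list of 29 genes had a median of -0.04, with 2 higher and 1 lower at that p, and its LSS, a lanosterol synthase, differed by 0.36 ± 0.11 (edgeR adjusted p = 0.33).

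Cell cycle and stress lists were centred near 0. The medians were 0.00 for 33 G1/S genes, -0.03 for 24 G2/M genes, -0.02 for 29 unfolded protein response genes, -0.02 for 18 heat shock genes and -0.03 for 24 p53 targets. They were 0.01 for 11 xenobiotic genes, -0.02 for 25 interferon-stimulated genes, 0.01 for 17 BCL2 family genes and -0.01 for 17 housekeeping genes. At an unadjusted p under 0.05, the most in 1 of these lists was 2 in a direction, among G1/S genes (higher) and heat shock genes (lower). Of the cell type lists, 14 basal and mesenchymal markers had a median of 0.03 with 1 higher at that p, and 8 stromal, endothelial and blood cell markers 0.09 with 1 higher and 1 lower.

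**Figure D5:**
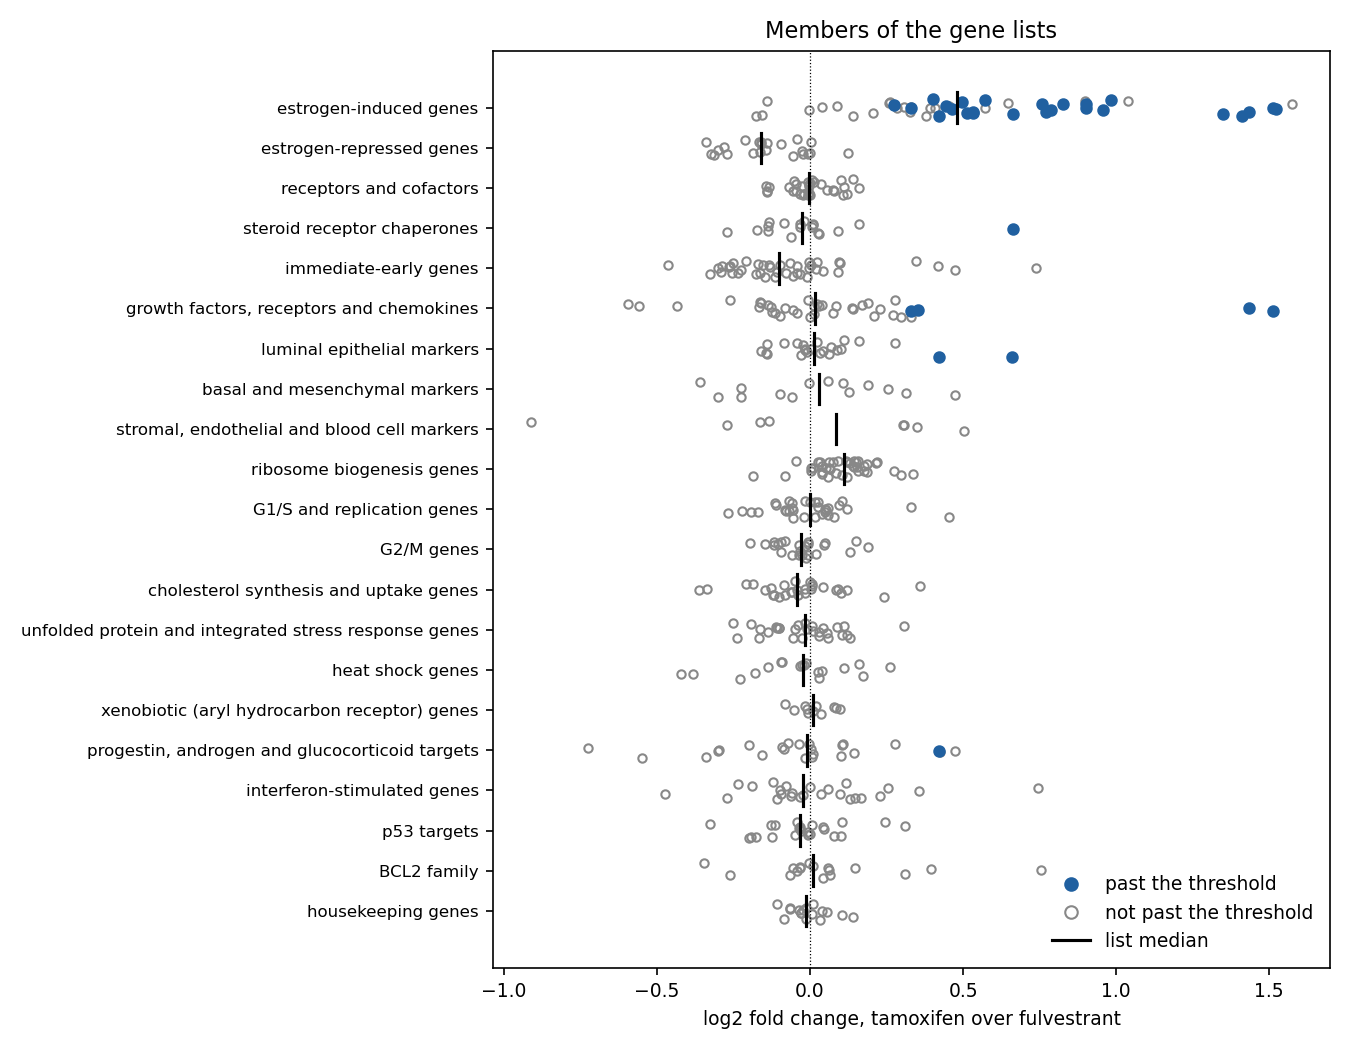
Each circle is a tested member of 1 of 21 gene lists at its log2 fold change of tamoxifen over fulvestrant (x axis), filled where it passed the threshold, with a bar at the list median. The estrogen-induced list has 25 of 48 members filled and a median of 0.48, and no list has a member called lower.

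Genes higher with tamoxifen often lay beside one another. RefSeq positions on GRCh38.p14 were found for 95 of the 106 genes, and 35 of these (36.8%) had another of the 106 within 100 kb, against 276 of 18491 tested genes with a position (1.49%). Of the 35, 10 overlapped another called gene, where reads of the pair may be shared. One group on chromosome 21 runs from CLIC6 (chr21:34668994-34718223) through LINC00160 and LINC01426 to RUNX1 (chr21:34787801-35049302). CLIC6, a chloride channel protein, had 13.4 and 13.7 CPM with fulvestrant and 20.9 and 25.5 CPM with tamoxifen (log2 0.77 ± 0.14, edgeR adjusted p = 0.0084). LINC01426 had 1.62 and 3.24 CPM with fulvestrant and 5.69 and 6.04 CPM with tamoxifen (log2 1.29 ± 0.29, edgeR adjusted p = 0.047). All 4 genes of the group were without overlap between the drugs, but CLIC6 lost its call without tamoxifen library 4 (0.15), fulvestrant library 3 (0.18) and fulvestrant library 4 (0.074). LINC01426 lost it without tamoxifen library 3 (0.19), tamoxifen library 4 (0.23) and fulvestrant library 3 (0.77).

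On chromosome 10, TRIM8, ARL3 and SFXN2 lie side by side (chr10:102644479-102743492 in all). SFXN2, a mitochondrial serine transporter family member, had 172 and 173 CPM with fulvestrant and 300 and 311 CPM with tamoxifen (log2 0.83 ± 0.06, edgeR adjusted p = 8.8e-08). ARL3, a small GTPase of the cilium, had 65.4 and 68.5 CPM with fulvestrant and 110 and 111 CPM with tamoxifen (log2 0.73 ± 0.07, edgeR adjusted p = 2.5e-06). TRIM8, a ubiquitin ligase family member, differed by 0.60 ± 0.10 (edgeR adjusted p = 0.0038, and 0.078 without tamoxifen library 3 and 0.11 without fulvestrant library 4). SERPINA10 and SERPINA6 on chromosome 14, RARA and IGFBP4 on chromosome 17, and B4GALT1 and SPINK4 on chromosome 9 were further neighbours, described above. Among 241 genes within 100 kb of a called gene that were not called themselves, the median log2 difference was 0.10, and in 87 (36.1%) both tamoxifen libraries were above both fulvestrant libraries, against 15.5% of all tested genes.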

How the data were processed

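The deposited values are the authors' raw counts per Ensembl gene and library, with no normalization. The submitters' processing notes name the genome build hg38, Bowtie2 2.4.4, SAMtools 1.9 and cutadapt 1.8.1. The sources used here do not give the counter, annotation, strand setting or counted part of a gene, so overlapping, antisense and near-identical genes are uncertain. Libraries were grouped and numbered by their descriptions (3 and 4), since titles number them 1 and 2. Of 60605 IDs, 60463 had a symbol, and the ID with the highest total was kept where IDs shared one, which left 59410 genes.

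Counts were fitted in R 4.3.3 with edgeR 4.0.16: filterByExpr, TMM scaling and a quasi-likelihood model of 6 groups over all 12 libraries, so that groups of 2 share 1 estimate of the spread. P-values were adjusted by Benjamini-Hochberg over 23375 genes with a threshold of 0.05, errors are standard errors of the fit, and intervals are 95%. The scripts were tested on simulated data. DESeq2 1.42.0, other scalings and filters, smaller fits, a replicate block and leaving out each library were alternatives, and leaving the raloxifene libraries out of the fit was chosen after seeing the data. No pair was a duplicate deposit: chi-square per gene was 2.16 between the tamoxifen libraries and 1.65 between the fulvestrant libraries. Intervals on counts do not separate PCR copies from molecules.

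The members and lists were chosen with earlier results of these data known. Named genes were the 12 with the largest differences in each direction among called genes that averaged 50 counts or more and did not overlap, the 4 members of each list with the lowest adjusted p, and 10 fixed receptor targets. Others named were chosen after their values were seen. The 21 lists are those plotted. Promoters and positions came from RefSeq tables of GRCh38.p14, matched by symbol.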

Additional observations from a re-analysis of the deposited data

How the results depend on the processing

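Of 106 genes higher with tamoxifen, the count was 162 with no filter on low counts and 82 with DESeq2, and leaving out 1 library gave 47 to 88. Genes lower with tamoxifen numbered 6 with unscaled libraries, 8 with no filter, and 1 with DESeq2, with only the 4 libraries fitted, with only complete medium fitted, or with p-values adjusted over the 3 drug pairs, and 1 to 2 when 1 library was left out. Of the higher genes, 47 to 85 were estradiol-raised when 1 library was left out. The replicate block, a term for library number, gave 219 higher, 23 lower and 203 estradiol-raised, and 498 calls for fulvestrant against vehicle, 172 for tamoxifen against vehicle, 77 for raloxifene against fulvestrant and 35 for tamoxifen against raloxifene. With the block ESR1 (edgeR adjusted p = 0.0078), CCND1 (6.7e-06), LRIG3, FOSL2 and MYBL1 also passed. The same 5 passed with no filter on low counts, and CCND1 also passed with the raloxifene libraries left out of the fit. The labels state no pairing, 2 numbers cannot test it, and deviations of same-numbered tamoxifen and fulvestrant libraries correlated at 0.277 across genes (0.043 to 0.366 over all group pairs). Tamoxifen against vehicle gave 93 calls with no filter, 5 with only complete medium, 25 without raloxifene and 2 to 17 when 1 library was left out. Raloxifene against fulvestrant gave 90 with no filter and 14 to 29 with 1 library left out, and tamoxifen against raloxifene 65, 0 with only complete medium, 5 with joint adjustment and 0 to 2. Fulvestrant against vehicle gave 140 to 305. DESeq2 gave 723 estradiol-raised genes and 2381 starvation calls. The median of 0.38 was 0.364 unscaled and 0.368 to 0.408 with 1 library left out. TIPARP ran from -0.046 to 0.2 with 1 library left out and was -0.029 without tamoxifen library 4. The cause of these shifts was not tested. With 2 libraries a group, small differences in genes of few counts were not detectable.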

Other observations

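The largest fold of all called genes was at PRRX2-AS1, an antisense RNA beside PTGES, with 0.485 and 1.8 CPM with fulvestrant and 6.78 and 4.87 CPM with tamoxifen. Its log2 difference was 2.39 ± 0.46 (edgeR adjusted p = 0.014), on a mean below 50 counts, and its adjusted p was 0.20 without tamoxifen library 3 and 0.46 without fulvestrant library 3. JAK1, a kinase of cytokine receptors, had 304 and 293 CPM with fulvestrant, 427 and 447 CPM with tamoxifen and 499 and 507 CPM with vehicle. The drugs did not overlap, and the log2 difference was 0.55 ± 0.06 (edgeR adjusted p = 6.2e-06). Both genes were picked after their values were seen.

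Gene length did not order the difference among genes raised at least 2-fold by estradiol. In 75 genes of 113 to 13841 bases the median log2 difference was 0.39, in 75 of 13879 to 51716 bases it was 0.44, and in 75 of 52158 to 506689 bases it was 0.29.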
